A study of Mus musculus with 2 samples.

Results

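Mir21a and Mir22 are a pair of microRNA (miRNA) genes known from the growth and remodelling of striated muscle, and they were described here in the gastrocnemius, a calf muscle, of young mice. They were taken by gene symbol, and both were found among the 2202 annotated miRNA genes of the deposited count files. Small RNA was sequenced from the gastrocnemius of 2 females of the hybrid B6CASTF1/J, whose parents are C57BL/6 and CAST, at 10 days of age. The labels name no treatment and no engineered allele, and all libraries belong to 1 group, so no contrast between conditions exists. The libraries are called replicate 2 and replicate 1, after the biological replicate numbers in the labels. The labels name them as different females but give both the same donor entry, and they were taken as separate animals here, on which every SD rests.

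MiRNAs are short RNAs cut from the arms of a hairpin precursor, and they repress messenger RNAs that match their seed, bases 2 to 8 of the mature strand. The Mir21a product miR-21 is known from fibroblasts, where it rises in scarring heart and dystrophic muscle, and its known targets include Spry1 and Pdcd4. The Mir22 product miR-22 is known as an abundant miRNA of heart and skeletal muscle that is needed for normal hypertrophy of the mouse heart, and its known targets include Sirt1 and Hdac4.

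The mature sequences show which reads each gene can give. RefSeq lists both arms of each member, and each arm is 22 bases long (build GRCm38.p6). Capitals mark the seed.
mmu-miR-21a-5p: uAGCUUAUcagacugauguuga
mmu-miR-21a-3p: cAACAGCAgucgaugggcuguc
mmu-miR-22-5p: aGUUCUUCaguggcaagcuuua
mmu-miR-22-3p: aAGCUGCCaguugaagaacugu
The 4 arms have 4 different seeds, so the members share no seed family. Among 1738 mature mouse miRNAs in the RefSeq table, only miR-21c shared a seed with an arm of either member, that of miR-21a-5p. The seeds of miR-21a-3p, miR-22-5p and miR-22-3p were found in no other mature miRNA of that table.

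The relatives of miR-21a are shown because their reads could be taken for those of Mir21a. Capitals again mark the seed.
mmu-miR-21b: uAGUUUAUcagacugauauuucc
mmu-miR-21c: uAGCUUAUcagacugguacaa
Counted from the 5′ end of miR-21a-5p, miR-21b carries C4U inside the seed, and G18A, G21U and A22C outside it. MiR-21c keeps the seed and carries A16G, G18A, U19C, U20A and G21A. The longest stretch that the Mir21a precursor shares with the Mir21c precursor is 15 bases, and with the Mir21b precursor it is 13 bases. Neither Mir21b nor Mir21c had a read in either library, and a count of 0 still permits a level of 0.760 CPM (replicate 2) or 0.854 CPM (replicate 1). All reads counted on the miR-21 genes were therefore on Mir21a.

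Both members lie on chromosome 11, 11.1 Mb apart, and both overlap an exon of a longer transcript. Mir21a (ENSMUSG00000065455.1, build mm10, chr11:86584067-86584158, minus strand) lies in the last exon, exon 12 of 12, of 1 annotated transcript of Vmp1, inside its 3′ untranslated region. It ends 202 bases before the annotated end of Vmp1, a gene of autophagy that encodes a membrane protein. Mir22 (ENSMUSG00000065529.1, chr11:75463716-75463810, plus strand) lies in exon 2 of both annotated transcripts of Mir22hg, its non-coding host gene. The same exon belongs to 1 non-coding transcript of the overlapping gene Tlcd2.

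The Mir22 hairpin has 95 bases, and that of Mir21a has 92. The Mir22 hairpin is printed with its mature arms in capitals, at bases 19 to 40 and 57 to 78.
Mir22 hairpin: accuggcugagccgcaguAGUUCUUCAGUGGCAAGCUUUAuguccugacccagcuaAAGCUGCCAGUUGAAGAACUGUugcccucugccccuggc
In the Mir21a hairpin the arms lie at bases 18 to 39 and 56 to 77, so that 16 bases separate the arms in both genes. A gene count sums both arms, and the share of each arm cannot be read from these files. No window of 22 or of 18 bases of either precursor occurred in another annotated miRNA precursor. The longest stretch that Mir22 shares with any other precursor was 13 bases, with Mir6998.

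Depth on miRNA genes was similar in both libraries, but the file of replicate 2 was larger. It held 10176117 reads, 38.8% of them on the sense strand of miRNA genes, against 8152102 reads and 43.1% in replicate 1. Replicate 2 gave 3949733 reads on the sense strand of miRNA genes and replicate 1 gave 3510897, and levels are given per 1e6 of these reads (CPM). Reads aligned to several places were counted on no gene and made up 46.4% of the file in replicate 2 and 42.6% in replicate 1. The labelled tissue was checked against 8 striated muscle markers, of which 7 were detected. Mir206, a miRNA of skeletal muscle, was the most abundant gene among reads placed at a single site, at 95264 CPM in replicate 2 and 115948 CPM in replicate 1. The other markers ran from 1.04 CPM for Mir133a-2 to 339.8 CPM for Mir499, with the counts of the miR-1 and miR-133a copies uncertain because their precursors share sequence. Sharing was judged by windows of 22 bases, so shorter reads of the other markers, Mir133b among them, were not screened for a match elsewhere. Here and below, at least 2 CPM in each library was asked of a detected gene, which 332 genes reached.

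Among reads placed at a single site, Mir21a and Mir22 were both among the 50 most abundant miRNA genes of the muscle. Genes with copies lose the reads that align to several places, so their levels can be too low. The ranks given here therefore hold only for the counted reads. Mir21a had 16793 reads, or 4252 CPM, in replicate 2, and 16023 reads, or 4564 CPM, in replicate 1. Its mean was 4408 ± 221 CPM (SD, n = 2), which placed it 37th of 2202 genes. Mir22 had 16418 reads, or 4157 CPM, in replicate 2, and 11262 reads, or 3208 CPM, in replicate 1. Its mean was 3682 ± 671 CPM (SD, n = 2), the 42nd place. Mir22 was the more variable member, and its higher value in replicate 2 stayed below both values of Mir21a.

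As shares of the counted reads, Mir21a held 0.425% in replicate 2 (0.419% to 0.432%, Wilson 95% interval), against 0.456% in replicate 1 (0.449% to 0.463%). Mir22 held 0.416% in replicate 2 (0.409% to 0.422%) and 0.321% in replicate 1 (0.315% to 0.327%). These intervals cover only the counting of reads within 1 library. The reads carry no molecular identifiers, so copies made by amplification could not be told from separate molecules. Together the members held 0.841% in replicate 2 and 0.777% in replicate 1. The mean of Mir21a was 34.0 times the median of the detected genes, which was 129.7 CPM, and that of Mir22 was 28.4 times it. Against Mir206 the members were minor species, at 4.17% of its mean for Mir21a and 3.49% for Mir22.

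**Figure D1:**
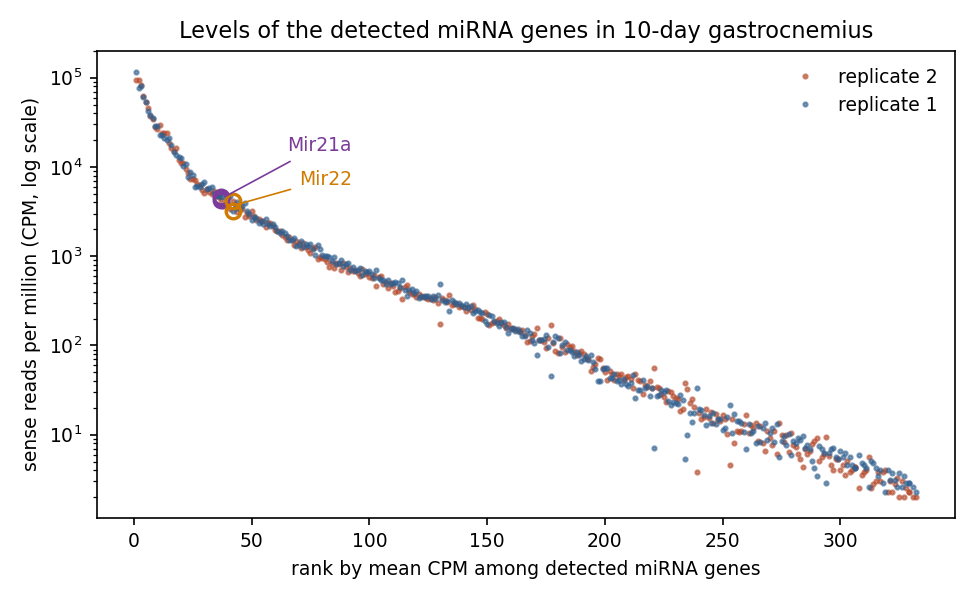
Levels of the 332 detected miRNA genes, in CPM on a log scale, against their rank by mean level; points are the values of replicate 2 and replicate 1, and circles mark Mir21a and Mir22. The members stand at places 37 and 42, where the curve has passed its steepest part.

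Reads of both members came almost wholly from the annotated strand. Antisense reads on Mir21a numbered 1 in replicate 2 and 3 in replicate 1. Mir22 had 0 antisense reads in both libraries. Counting without strand therefore left their counts nearly as they were, at 16794 and 16026 reads for Mir21a in replicates 2 and 1 and at 16418 and 11262 for Mir22.

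Within each library the rank of Mir21a was steadier than that of Mir22. Mir21a was 38th in replicate 2 and 39th in replicate 1. Mir22 was 39th in replicate 2, next to Mir21a, and 47th in replicate 1. The ratio of Mir22 to Mir21a within a library does not depend on scaling between libraries. It was 0.978 in replicate 2 (exact 95% interval 0.957 to 0.999) and 0.703 in replicate 1 (0.686 to 0.720), with a mean of 0.840 ± 0.194 (SD, n = 2). Mir21a was thus ahead of Mir22 in 2 of 2 animals, by a narrow margin in replicate 2. The arms are of equal length, so no correction for length applies, but how well each sequence is ligated and amplified was not tested.

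The genes nearest to the members in level were taken as the 3 places above and below each of them, because a single group offers no pattern across conditions. Above Mir21a stood Mir744 (5286 ± 206 CPM), Mir10b of the Hox D locus (4757 ± 26.3 CPM) and Mir191 (4691 ± 67.2 CPM). The values of these 3 genes did not overlap those of Mir21a in the 2 animals. Below it stood Mir483, encoded in Igf2 (4400 ± 1001 CPM), Mir99b (4220 ± 453 CPM) and Mir376c (4183 ± 422 CPM), each with values that overlapped those of Mir21a. In all, 4 genes, at places 38 to 41, overlapped Mir21a.

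The order around Mir22 was less firm. Directly above it stood Mir493 of the Dlk1-Dio3 imprinted region (4031 ± 924 CPM), after Mir99b and Mir376c. Directly below came Mir532 (3663 ± 251 CPM), Mir409, also of Dlk1-Dio3 (3604 ± 702 CPM), and Mir151 (3546 ± 200 CPM). Values of all 6 of these genes overlapped those of Mir22, as did those of 9 genes in all, at places 38 to 47. The ranges of Mir21a and Mir22 did not overlap each other. Levels of Mir376c are uncertain, because its precursor shares windows of 22 bases with another.

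**Figure D2:**
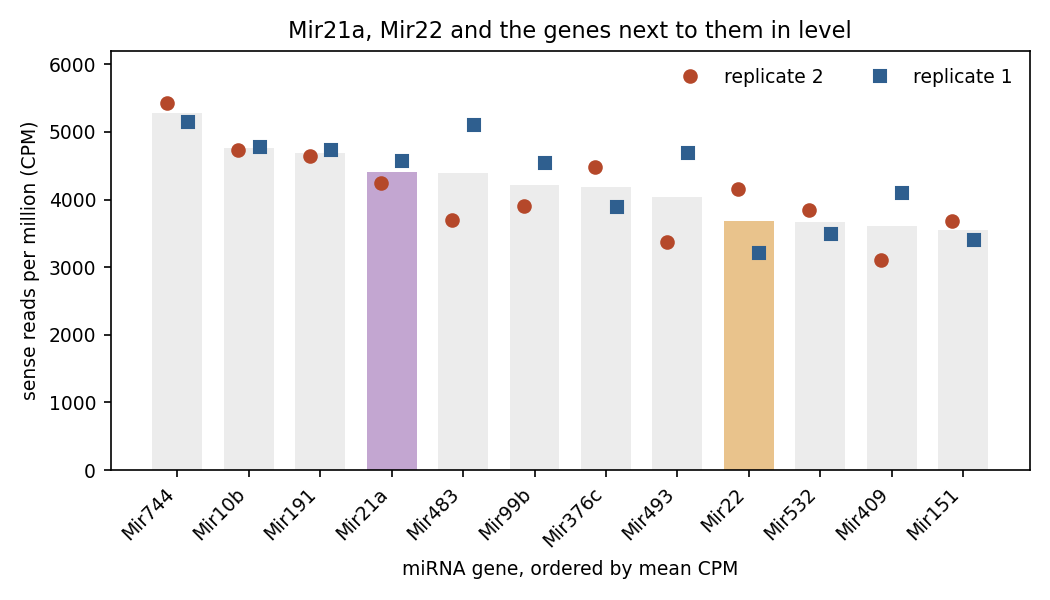
Levels of Mir21a (purple bar), Mir22 (orange bar) and the genes at the 3 places above and below each, in CPM; bars are means of the 2 animals, circles replicate 2 and squares replicate 1. Mir483, Mir493 and Mir409 are lower in replicate 2, while Mir22 is higher there at 4157 against 3208 CPM.

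Between the libraries the members moved in opposite directions, Mir22 by more than Mir21a. Ratios are replicate 2 over replicate 1, and the counts of 395 genes with at least 10 reads were compared by an exact binomial test, two-sided and conditional on the library totals, with Benjamini-Hochberg adjustment. It compares these libraries, each of 1 animal, not conditions. Mir22 was 1.30-fold higher in replicate 2 (95% interval 1.27 to 1.33, log2 ratio 0.37, exact adjusted p = 1.97e-99). Mir21a was lower in replicate 2, with a ratio of 0.932 (95% interval 0.912 to 0.952, log2 ratio -0.10, exact adjusted p = 9.00e-10). Of all genes tested, 41.3% had an adjusted p under 0.05, with 17.0% higher and 24.3% lower in replicate 2. A limit of 2-fold, which 7.09% of genes passed, was reached by neither member.

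Nearly all genes of this depth passed that test. Of 79 genes with a mean of at least 1000 CPM, a limit chosen after values were seen, 69 had an adjusted p under 0.05. Relative to the spread between animals the differences were moderate. The SD of Mir21a was 5.01% of its mean and that of Mir22 was 18.2%. The common biological coefficient of variation over 320 genes with at least 10 reads in each library was 18.8%, from edgeR. The spread of Mir22 was therefore close to this common value, and that of Mir21a was below it.

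Among abundant genes, however, the ratio of Mir22 lay at the upper edge. The median absolute log2 ratio of the 79 genes was 0.14. None of them exceeded Mir22 in the direction of replicate 2, and the next was Mir143, a miRNA of smooth muscle and stroma, at 29190 CPM in replicate 2 and 22806 CPM in replicate 1 (log2 ratio 0.36). The gap between these ratios is small. In absolute size 6 genes exceeded Mir22, all lower in replicate 2, among them Mir214 (log2 ratio -0.49) and Mir665 (-0.51). With a limit of 500 CPM again 0 of 107 genes exceeded Mir22 in its direction, and with a limit of 100 CPM 5 of 181 did. Mir21a lay nearer to 0, with 51 of the 79 genes showing a larger absolute ratio.

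**Figure D3:**
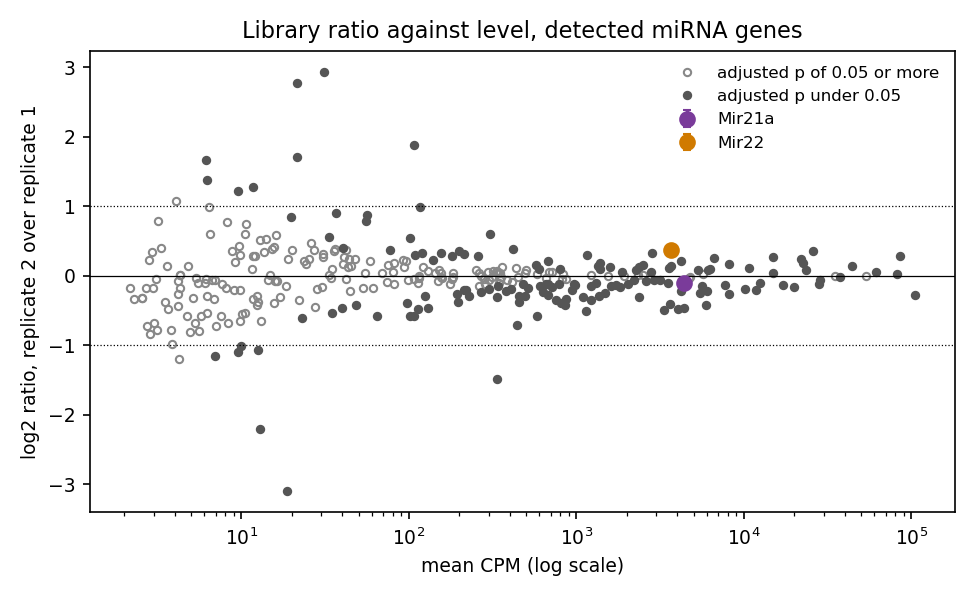
Log2 ratio of replicate 2 over replicate 1 against mean level (CPM, log scale) for the 332 detected miRNA genes; filled grey points passed an adjusted p of 0.05, dotted lines mark 2-fold, and the exact intervals of Mir21a and Mir22 are shorter than their symbols. Mir22 at 0.37 is at the upper edge of the abundant genes and Mir21a at -0.10 lies among them.

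Along chromosome 11 the members held places 2 and 3 among 137 annotated miRNA genes, 25 of them detected. Mir744 ranked first there. Mir21a held 17.2% of the reads counted on miRNA genes of the chromosome and Mir22 14.3%. The nearest annotated miRNA genes on either side of Mir22, Gm47300 at 145.1 kb and Mir3971 at 87.6 kb, had 0 reads in both libraries. On the lower side of Mir21a, Mir5110 at 823.4 kb also had 0 reads. On its other side Mir301, 528.8 kb away on the opposite strand, stood at 1533 CPM in replicate 2 and 1538 CPM in replicate 1. Its log2 ratio was -0.01 and did not pass the test (exact adjusted p = 0.906). Each member is thus a lone gene, far from other miRNA genes.

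Among miRNA genes known from growth of heart or skeletal muscle, Mir22 held place 4 of the 14 whose precursor shares no window of 22 bases with another. The list has 20 genes, and the other 6, copies of miR-1, miR-133a and miR-199a, have uncertain counts and cannot be ranked against Mir22. Windows shared with a precursor that overlaps the gene itself on the chromosome were left out of this screen, as were stretches under 22 bases. Counts of other genes among the 14 can therefore also be too low, and the place of Mir22 holds for the counted reads only. Ahead of it stood Mir206, Mir378a, encoded in the mitochondrial coactivator gene Ppargc1b (85870 ± 12007 CPM), and Mir23a, known from repression of muscle atrophy ligases (28409 ± 804 CPM). Mir214 followed at 3341 ± 792 CPM, and its values overlapped those of Mir22. The myosin-encoded genes Mir499 (339.8 ± 5.66 CPM) and Mir208b (101.4 ± 26.6 CPM), which act on the fibre type of striated muscle, were far below Mir22. The list held 23.0% of the counted reads in replicate 2, against 23.5% in replicate 1, and Mir22 made up 1.58% of the list.

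The growth list contained genes that moved with Mir22 and genes that moved against it. Of its 20 genes, 17 were detected and 18 tested. Of the latter, 7 (38.9%), Mir22 among them, were higher in replicate 2 and 4 (22.2%) lower at an adjusted p under 0.05. Over all tested genes the shares were 17.0% and 24.3%. Calls depend on depth, and of the 79 genes with a mean of at least 1000 CPM, 31 were higher and 38 lower. The list holds both deep and shallow genes, so its shares cannot be read as a trait of the list. Higher with Mir22 were Mir208b (log2 ratio 0.54), Mir1a-2 (0.37), Mir486 (0.31), Mir132 (0.30), Mir378a (0.29) and Mir27b (0.12). Lower were Mir214 (-0.49), Mir199a-2 (-0.43), Mir206 (-0.28) and Mir23a (-0.06). The median log2 ratio of the list was 0.21, and 0.14 without Mir22, beside -0.03 over all genes tested. Scaled to all reads in the file, 3 genes were higher and 5 lower, with the calls of Mir1a-2, Mir486, Mir132 and Mir27b lost (exact adjusted p from 0.0603 to 0.332). That of Mir23a was lost with DESeq2 size factors (exact adjusted p = 0.667).

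Among miRNA genes known from fibrosis, Mir21a held place 3 of the 9 whose precursor shares no window of 22 bases with another. The other 11 of the 20 genes on the list, among them Mir29c, have uncertain counts and cannot be ranked against Mir21a. The same limits of the screen apply to other genes among the 9, so the place of Mir21a also holds for the counted reads only. Of the reads counted on the list, 20.8% were on Mir21a. Ahead of it stood Mir30a (6619 ± 834 CPM), known to restrain connective tissue growth factor, and Mir433 of Dlk1-Dio3 (5584 ± 400 CPM). Mir214, a miRNA of mesenchymal cells encoded in Dnm3os, came next at 2781 CPM in replicate 2 and 3900 CPM in replicate 1. Mir29a, of a family that represses collagens and falls in fibrotic tissue, was far lower, at 133.7 CPM in replicate 2 and 106.8 CPM in replicate 1. Mir155, a miRNA of activated leukocytes, stood at 183.2 ± 3.72 CPM.

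Genes of the fibrosis list were called in both directions between the libraries. Of 20 genes, 16 were detected and 18 tested, 4 (22.2%) higher and 5 (27.8%) lower in replicate 2 at an adjusted p under 0.05, near the shares of all tested genes. Lower with Mir21a were Mir214 (log2 ratio -0.49), Mir199a-2 (-0.43), Mir503 (-0.23) and Mir433 (-0.15). Higher were Mir29c (0.40), Mir101a (0.33), Mir29a (0.32) and Mir30a (0.26). The calls of Mir29a, Mir29c and Mir101a were lost when counts were scaled to all reads in the file, where exact adjusted p-values were 0.135, 0.235 and 0.0710, and that of Mir29c was also lost with TMM factors (exact adjusted p = 0.0517). The median log2 ratio of the list was 0.04, beside -0.03 over all genes tested.

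**Figure D4:**
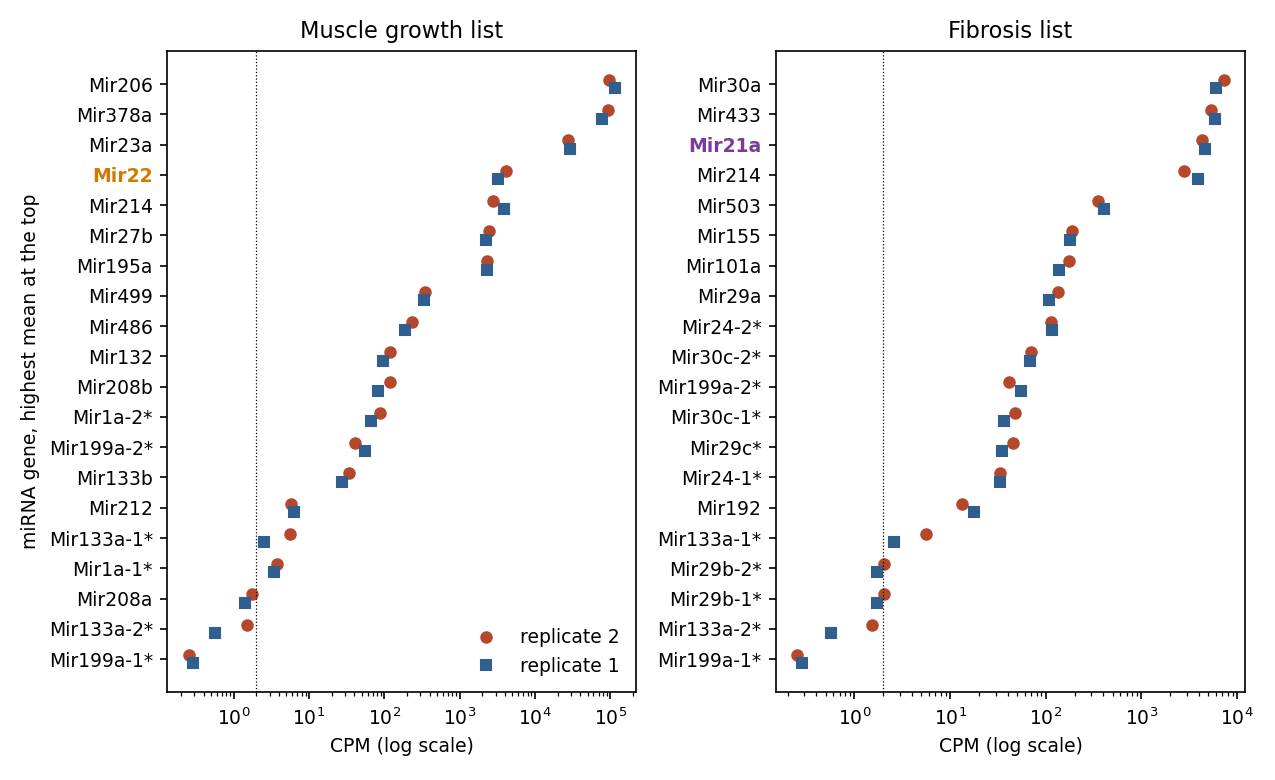
Levels of the miRNA genes of the muscle growth list (left) and the fibrosis list (right) in CPM on a log scale; circles are replicate 2, squares replicate 1, the dotted line marks 2 CPM, and an asterisk marks genes whose precursor shares a window of 22 bases with another. Precursors that overlap on the chromosome were not screened against each other. Among genes without an asterisk, Mir22 stands at place 4 of its list and Mir21a at place 3.

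Markers of the cell types that dissected muscle could hold differed between the libraries beside the members. In whole tissue, fewer cells of a type and less RNA per cell cannot be told apart. Over all tested genes, 17.0% were higher and 24.3% lower in replicate 2 at an adjusted p under 0.05, and 7.09% also passed 2-fold. Calls depend on depth, so counts of called markers cannot be read as a trait of a cell type. The 8 striated muscle markers had a sum of 95861 CPM in replicate 2, against 116468 CPM in replicate 1, nearly all of it on Mir206. Of the 7 tested, Mir206 was lower in replicate 2 at an adjusted p under 0.05 and 2 were higher, Mir208b and Mir1a-2, and the median log2 ratio of the 7 was 0.32. The 6 stromal and smooth muscle markers, 5 of them detected, had a sum of 32786 CPM in replicate 2, against 27513 CPM in replicate 1. Most of it was on Mir143, at 29190 and 22806 CPM. Of the 5 tested, Mir143 was higher in replicate 2 at an adjusted p under 0.05, and Mir214 and Mir199a-2 were lower. The median log2 ratio of the 5 was -0.09. Endothelial Mir126a stood at 46314 CPM in replicate 2 and 42036 CPM in replicate 1. All 5 leukocyte markers were detected, with a sum of 974.2 CPM in replicate 2, against 1099 CPM in replicate 1, below the level of either member alone. Of these 5, 0 were higher and 3 lower in replicate 2 at an adjusted p under 0.05, or 2 lower with DESeq2 size factors.

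Both erythroid markers together reached 1865 CPM in replicate 2 and 2066 CPM in replicate 1. Of these 2, Mir451a was lower in replicate 2 at an adjusted p under 0.05. Of 9 neural and glial markers 2 were detected, with a sum of 377.2 CPM in replicate 2 and 249.8 CPM in replicate 1. Nearly all of it was on Mir338, at 366.9 and 243.0 CPM, while Mir219a-1 stood at 4.05 and 4.56 CPM. Of the 3 tested, only Mir338 had an adjusted p under 0.05, higher in replicate 2. The 3 Mir124a genes and Mir9-2 had 0 reads, but they share windows with copies, so that their 0 sets no limit. Of 7 epithelial markers 5 were detected, with a sum of 125.1 CPM in replicate 2 and 197.1 CPM in replicate 1. Of the 6 tested, 0 were higher and 4 lower in replicate 2 at an adjusted p under 0.05, 3 of them past 2-fold. The liver miRNA Mir122 stood at 175.7 CPM and 491.0 CPM, also lower in replicate 2 past 2-fold (log2 ratio -1.48). The part of these differences in the library ratios of Mir21a and Mir22 was not tested.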

How the data were processed

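Small RNA under 30 bases was sequenced from total RNA of 2 gastrocnemius samples, per the labels. The deposited files hold raw read counts per miRNA gene, without strand, sense and antisense, on build mm10 with GENCODE M21, per the descriptions deposited beside them. The aligner and trimming: not given in the sources used here. The sense column was recognised by its totals. The 4 summary rows were left out of totals. Both samples carry the same donor entry, taken as that of the strain.

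Sense counts were scaled to 1e6. Ratios have 0.5 added to each count, and the exact binomial test (scipy 1.17.1) was tested on simulated data. The simulation held counting error only, so it does not show how the test behaves under variation between animals. TMM factors and the common variation came from edgeR 4.0.16, size factors from DESeq2 1.42.0, in R 4.3.3. Precursors were compared on both strands, but not with precursors that overlap them on the chromosome. No genome sequence was used, so copies outside annotated precursors were not searched. Named genes were the members, their level and chromosome neighbours, genes sharing a seed, 2 lists, highest first, and cell type markers. Mir21b, as a relative by name, and Mir143, Mir665 and Mir6998 in their comparisons, were named after their values were seen. The members and lists were chosen with earlier results of these data known. Alternatives covered scaling, strand, minimum counts and single replicates.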

Additional observations from a re-analysis of the deposited data

How the results depend on the processing

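No paired analysis was possible because all samples belong to 1 group. Of 49 alternative values, 39 kept their direction and call or stayed within the spread of the animals, and 0 reversed. Some of these could not move. With 2 animals, a single replicate always lies within the SD of a level or of the ratio of the members. Dropping the minimum count leaves each library ratio unchanged, and almost no antisense reads fell on the members. The count of 39 is therefore no measure of robustness. The library ratio kept its sign and an adjusted p under 0.05 in all 6 alternatives for each member: log2 ratios ran from 0.22 to 0.43 for Mir22 and from -0.25 to -0.05 for Mir21a. Levels depend on the denominator. Without the 5 most abundant genes Mir21a stood at 7209.9 CPM and Mir22 at 6023 CPM, with counts made without strand at 5273 and 4413 CPM, and per 1e6 of all reads in the file, a scaling chosen after seeing the data, at 1808 and 1497. The rank of Mir21a was 32 without strand and ran from 38 to 39 with a single replicate. Genes past the 2-fold limit numbered 28, and 13 with a minimum of 50 counts, which tests fewer genes. Of 163 genes with an adjusted p under 0.05, 67 were higher and 96 lower in replicate 2. With DESeq2 size factors these were 89 and 78, and with all reads in the file, which shifted every log2 ratio by -0.15, they were 32 and 146. Depth does not limit the members, each with at least 11262 reads per library, but 2 animals do.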
